A study of Aphis gossypii with 6 samples.

Results

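The homeobox genes of the cotton aphid, Aphis gossypii, were examined in RNA from pooled whole bodies. They were chosen by product description: the text names a homeobox, homeotic, homeodomain, paired box or POU domain protein and not an interacting protein or cofactor. The rule found 90 of the 14013 genes in the deposited table, and measured values played no part in it. The study compared 3 libraries of a field-derived population resistant to beta-cypermethrin, a pyrethroid insecticide (RGL), with 3 libraries of a sensitive strain (SGL, genotype label WT). Neither was exposed to the insecticide. Age and morph are not stated, nor is it stated that the libraries of a strain are separate cultures. The p-values therefore reflect the spread among these libraries, which may be technical. Each condition is a single strain, and resistance cannot be told apart from other differences between the strains.

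The homeobox encodes the homeodomain, a DNA-binding fold carried by many transcription factors that assign position and cell type in animal embryos. Hox genes set segment identity along the head-to-tail axis, and some TALE proteins bind DNA together with Hox proteins. Paired, LIM, POU and other classes act largely in eyes, nerves, appendages and gut. Aphid mothers that reproduce without males carry developing embryos, so RNA of a whole body can hold maternal and embryonic transcripts. In such bulk RNA, fewer cells of a type and less RNA per cell cannot be told apart.

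The libraries held between 31290134 and 46681719 counts, and 88 to 90 of the 90 genes had a count in each. Levels are given as CPM (counts scaled to library size after TMM normalization) when libraries are compared, and as the authors' FPKM, which also corrects for gene length, when genes are compared. Resistant replicate 1 stood apart from the other resistant libraries in the whole table, and its effect on these genes is given with the results. It was singled out with the data seen. In the test used below 53.5% of all tested genes differed between the strains without it, against 35.8% with it. The adjusted p-values without it are therefore descriptive. No strand setting is stated, so reads from overlapping genes on opposite strands cannot be assigned with certainty.

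The name was not always borne out by the domain listed. The table's Pfam column gave a homeobox-family domain (homeodomain, KN, paired box, LIM, POU, PBC, Meis, Six-type, CUT, prospero or OAR) for 69 of the 90 genes. Of the other 21, 12 had no Pfam entry and 9 had another one. LOC114123858, named proboscipedia-like, was listed with an insect cuticle protein domain, LOC114132312, named homeobox protein 12-like, with an RNA recognition motif and the Swiss-Prot match boule, and LOC114121784, named homeobox protein 13-like, with a chaperone domain. Both polyhomeotic genes had a SAM domain, and the spalt-major gene had zinc fingers. These 21 genes are described apart from the 69.

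Most of the genes had low transcript levels. The median over the 90 genes of the mean FPKM in the 6 libraries was 4.57, against 14.8 over all tested genes. It was 4.12 for the 69 genes with a family domain, of which 17 reached 10 FPKM, and 9.37 for the 21 without. The highest level belonged to LOC114122431, named tetra-peptide repeat homeobox protein 1-like and listed with no domain, at 806 FPKM, with libraries from 523 to 1354. Next came the polyhomeotic gene LOC114121482 at 94.3 FPKM (73.9 to 114) and extradenticle, LOC114130009, at 89.4 FPKM (67.3 to 109). These ranges overlap and do not order the pair. LOC114121784 was at 80.5 FPKM (61.9 to 96.4), overlapping both. A second tetra-peptide repeat gene, LOC114126311, was at 62.7 FPKM (37.1 to 116). The lowest, the pnx-like LOC114125750, was at 0.0391 FPKM. Both genes that failed the low-count filter were among the 3 lowest. LOC114125750 had 0 counts in the 3 resistant libraries and in susceptible replicate 1, where a count of 0 allows up to 3 counts. The MOX-2-like LOC114119651 had at most 0.355 CPM.

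Of the 88 tested genes 21 differed between the strains, 23.9%, where the background over all 11149 tested genes was 35.8% (adjusted p under 0.05 in edgeR's quasi-likelihood F test). In the resistant strain 9 were higher (background 21.4%) and 12 lower (background 14.4%). At least 2-fold rises were seen in 7 genes (background 8.31%), and 0 fell as much (background 1.96%). The libraries of the strains did not overlap in 37 genes, 42.0%, against 54.1% of all tested genes, with resistant libraries higher in 13 (background 28.2%) and lower in 24 (background 25.8%). The median log2 fold change, resistant over susceptible, was -0.16, where that of all tested genes was -0.0037. Among the 67 tested genes with a family domain 4 rose and 10 fell, with a median of -0.33 and a log2 fold change below 0 in 48. Of the 21 without such a domain 5 rose and 2 fell, with a median of 0.36. With scaling to library totals the median moved to -0.15 for all genes and to -0.32 for the 88, and 8 of the 88 genes were called higher (9.09%, background 15.8% under that scaling) and 25 lower (28.4%, background 20.8%).

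**Figure D1:**
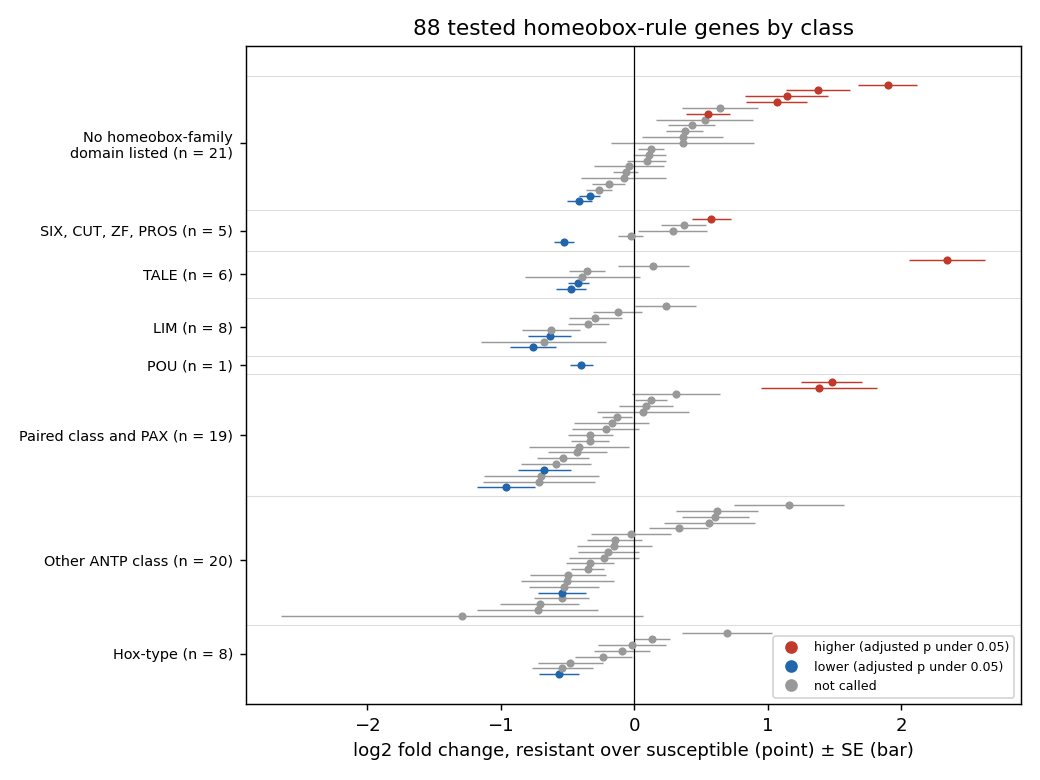
Log2 fold change, resistant over susceptible, of the 88 tested genes (points) with its SE (bars), grouped by class, with called genes in red (9 higher) and blue (12 lower). Most points of the LIM, paired, other ANTP and Hox-type classes lie left of 0, and the highest lies in the TALE class at 2.34.

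Among the 8 Hox-type genes, 1 fell and 0 rose, with a median log2 fold change of -0.16. The counts of this class and of those below stand beside 14.4% of all tested genes lower and 21.4% higher. The abdominal-A gene LOC114130733, whose fly counterpart specifies abdominal segments, had 13.7, 11.3 and 15.9 CPM in resistant replicates 1 to 3 and 20.7, 19.8 and 19.9 CPM in susceptible replicates 1 to 3. The 3 resistant libraries lay below the 3 susceptible ones, and the log2 fold change was -0.56 ± 0.15 (SE, adjusted p = 0.0194). A second gene named abdominal-A homolog, LOC114128128, whose Swiss-Prot match is Sex combs reduced, had 17.1, 9.02 and 9.44 CPM in the resistant and 15.6, 17.4 and 16.3 CPM in the susceptible libraries. Resistant replicate 1 sat within the susceptible range while the other resistant libraries lay below it (-0.48 ± 0.24, adjusted p = 0.160; -0.83 with adjusted p = 1.37e-05 without that library). The Hox-A4-like LOC114120954, with the Swiss-Prot match Deformed, a head segment gene of flies, had 29.7, 16.3 and 18.6 CPM against 26.6, 23.98 and 24.8 CPM. Here resistant replicate 1 lay above the susceptible libraries and the other resistant libraries below them (-0.23 ± 0.21, adjusted p = 0.431; -0.53 with adjusted p = 0.000323 without resistant replicate 1).

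The labial-like LOC114125327, whose fly counterpart acts in the head, had 3.06, 3.49 and 2.16 CPM in the resistant and 4.47, 3.91 and 4.28 CPM in the susceptible libraries. The strains did not overlap, but the test was not passed (-0.54 ± 0.23, adjusted p = 0.0978, and 0.0478 without resistant replicate 1). The antennapedia-like LOC114125197, which in flies gives thoracic segments their identity, had overlapping strains, with 32.6, 28.8 and 23.6 CPM against 26.2, 27.0 and 24.2 CPM (0.13 ± 0.14, adjusted p = 0.479). Proboscipedia-like LOC114125324, named for the fly gene of adult mouthparts, had a log2 fold change of -0.09 ± 0.21 (adjusted p = 0.759) and LOC114128129, named H55 and matched to Sex combs reduced, of -0.02 ± 0.26 (adjusted p = 0.966). In both, the libraries of the strains overlapped. Per length, the mean level of the 8 genes ran from 1.69 FPKM for the labial-like gene to 10.4 FPKM for H55. The lin-39-like LOC114125326, matched to zerknuellt, which in flies acts in extra-embryonic tissue, had 9.84, 5.01 and 3.87 CPM in the resistant and 3.37, 3.71 and 4.40 CPM in the susceptible libraries. Its range among the resistant libraries, 1.33 on the log2 CPM scale, was among the 3 widest of all 88 genes. Its log2 fold change of 0.69 ± 0.34 (adjusted p = 0.144) fell to 0.22 (adjusted p = 0.392) without resistant replicate 1. It rose to 0.95 (adjusted p = 0.0426) without resistant replicate 3.

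**Figure D2:**
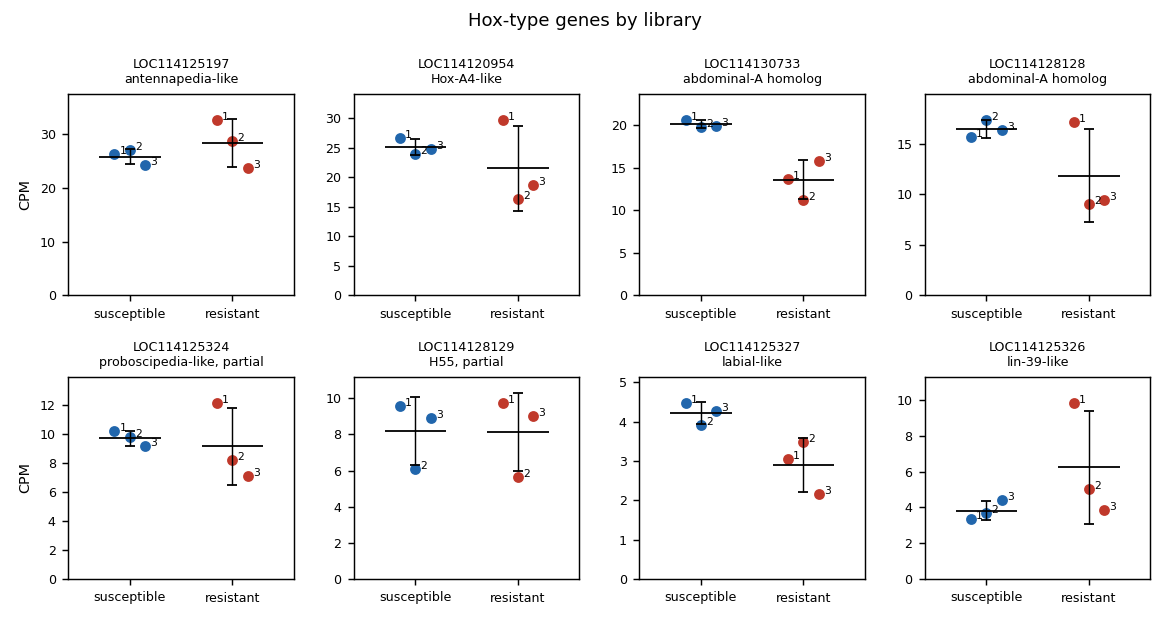
CPM of the 8 Hox-type genes in each library (points, numbered by replicate), with the mean and SD per strain (line and bar). In LOC114130733 all resistant libraries lie below the susceptible ones, and resistant replicate 1 is the highest resistant library in 6 of the 8 genes.

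Some TALE proteins, such as extradenticle, bind DNA beside Hox proteins. Of the 6 TALE genes 2 fell and 1 rose. Extradenticle, LOC114130009, the Hox partner, had 179, 177 and 166 CPM in the resistant and 242, 229 and 228 CPM in the susceptible libraries. Every resistant library lay below every susceptible one (-0.42 ± 0.08, adjusted p = 0.00407). The PKNOX2-like LOC114120612, matched to homothorax, which in flies carries extradenticle into the nucleus, fell likewise, from 63.8 ± 1.51 to 45.96 ± 6.29 CPM (mean ± SD, n = 3; -0.47 ± 0.11, adjusted p = 0.0137). The Iroquois genes pattern sensory bristles and wing veins in flies. The IRX-2-like LOC114131537 had 10.1, 7.70 and 5.87 CPM in the resistant and 1.10, 1.88 and 1.68 CPM in the susceptible libraries. It was 5.07-fold higher in the resistant strain, the largest fold change among the 21 called genes (log2 fold change 2.34 ± 0.29, adjusted p = 0.000572). A second Iroquois gene, the caupolican-like LOC114132164, had 227, 119 and 101 CPM against 128, 141 and 135 CPM. Only resistant replicate 1 was above the susceptible range and the other resistant libraries were below it, so the log2 fold change was 0.14 ± 0.27 (adjusted p = 0.701) with that library and -0.29 (adjusted p = 0.00193) without it. It was -0.04 with scaling to library totals. The difference between the responses of these Iroquois genes was not tested.

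The POU gene LOC114130916, matched to nubbin, a fly gene of wing and limb growth, fell from 60.8 ± 2.74 to 46.3 ± 0.602 CPM (-0.39 ± 0.09, adjusted p = 0.00818). The resistant libraries, at 46.8, 46.5 and 45.6 CPM, lay close together and below the susceptible ones. Of the 8 LIM genes 2 fell and 0 rose, beside 14.4% and 21.4% of all tested genes. In 7 of the 8 the log2 fold change was below 0, with a median of -0.48. The Awh-like LOC114127352, named for the fly gene Arrowhead, which acts in precursors of adult tissue, had 4.69, 5.94 and 4.502 CPM in the resistant and 8.89, 8.05 and 8.68 CPM in the susceptible libraries (-0.76 ± 0.17, adjusted p = 0.0105). Lhx3, LOC114120526, a motor neuron gene in vertebrates, had 27.3, 20.6 and 19.0 CPM against 34.1, 38.7 and 30.7 CPM (-0.63 ± 0.16, adjusted p = 0.0170). In both genes the strains did not overlap.

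Among the 20 tested genes of the other ANTP families, such as engrailed, Distal-less and the NK genes, 1 fell and 0 rose. That gene, the GS homeobox 2-like LOC114122399, of a family that patterns nerve precursors, fell from 5.67 ± 0.192 to 3.91 ± 0.554 CPM (-0.54 ± 0.18, adjusted p = 0.0455), at the edge of the threshold. The median of these 20 was -0.28, with 15 below 0. The engrailed-like LOC114132230 (-0.33 ± 0.18) and the invected-like LOC114129817 (-0.19 ± 0.23), a pair of segment polarity genes in flies, did not pass the test (adjusted p = 0.179 and 0.535). Without resistant replicate 1 both were lower, with log2 fold changes of -0.41 and -0.50 (adjusted p = 0.0451 and 0.00149). The E60-like LOC114131546, matched to engrailed, had 0, 26 and 47 counts in resistant and 169, 4 and 3 counts in susceptible replicates 1 to 3. The strains overlapped, susceptible replicate 1 held the highest count, and the test was not passed (-1.29 ± 1.36, adjusted p = 0.487). Without that library the sign changed and the test was again not passed (2.58, adjusted p = 0.214).

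In the paired and PAX classes 2 of 19 genes rose and 2 fell, and the median was -0.33. The Ptx1-like LOC114128262, of the Pitx family known from the vertebrate pituitary, had 9.39, 6.46 and 6.17 CPM in the resistant and 2.20, 2.87 and 2.81 CPM in the susceptible libraries. It was 2.79-fold higher without overlap (1.48 ± 0.23 on the log2 scale, adjusted p = 0.00183). Pax-6 genes direct eye formation in insects and vertebrates, and 3 genes carried that name. LOC114128833 had 3.91, 3.53 and 2.62 CPM against 2.25, 0.898 and 0.659 CPM (1.39 ± 0.44, adjusted p = 0.0385; 0.0577 with scaling to library totals). The more abundant LOC114125166 had 51.1, 27.4 and 29.9 CPM against 48.1, 50.1 and 47.0 CPM (-0.42 ± 0.22, adjusted p = 0.162). In it resistant replicate 1 was above the susceptible libraries, and the log2 fold change was -0.76 (adjusted p = 3.86e-07) without that library. The third, LOC114130522, did not pass the test (0.06 ± 0.34, adjusted p = 0.900). Genes with 1 name may share reads, and how such reads were counted is not stated, which leaves the values of single copies uncertain. The paired mesoderm homeobox 2-like LOC114126816 fell from 4.15 ± 0.720 to 2.12 ± 0.234 CPM (-0.96 ± 0.22, adjusted p = 0.0107) and the Rx-B-like LOC114120174, of a family named for the vertebrate retina, from 3.88 ± 0.419 to 2.44 ± 0.182 CPM (-0.67 ± 0.20, adjusted p = 0.0289). The pox-neuro-like LOC114122388, named for a fly gene of sense organs, had one of the 3 widest ranges among resistant libraries, with 2.01, 1.08 and 0.764 CPM against 2.17, 1.33 and 2.72 CPM (-0.71 ± 0.42, adjusted p = 0.216; -1.15 with adjusted p = 0.0140 without resistant replicate 1).

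Of the 5 Six-type, CUT, zinc finger and prospero genes, 1 fell and 1 rose. Cut, LOC114121131, a fly gene of external sense organs and excretory tubules, had 130, 131 and 134 CPM in the resistant and 196, 184 and 189 CPM in the susceptible libraries. The spread within each strain was small beside the gap between them (-0.52 ± 0.07, adjusted p = 0.00107). Prospero, LOC114130363, which in flies ends the divisions of neural precursors, rose from 41.5 ± 4.11 to 62.1 ± 11.3 CPM (0.58 ± 0.14, adjusted p = 0.0153). Its resistant libraries, at 75.0, 56.8 and 54.3 CPM, were all above the susceptible ones. The prospero-like LOC114123560, with no Pfam entry, went the other way. It had 79.0, 66.6 and 66.2 CPM in the resistant and 85.5, 84.9 and 84.0 CPM in the susceptible libraries. The strains did not overlap, but the test was not passed (-0.27 ± 0.10, adjusted p = 0.0604). Without resistant replicate 1 its log2 fold change was -0.35 (adjusted p = 0.000135).

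The 21 genes with no homeobox-family domain listed held 4 of the 7 rises of at least 2-fold. The 3 tetra-peptide repeat homeobox 1-like genes were all among them. LOC114127259 had 57.6, 37.0 and 31.3 CPM in the resistant and 11.6, 10.9 and 11.1 CPM in the susceptible libraries (1.90 ± 0.22, adjusted p = 0.000434). LOC114126311 had 165, 93.1 and 83.7 CPM against 44.9, 43.5 and 43.2 CPM (1.38 ± 0.24, adjusted p = 0.00292). LOC114122431 had 2257, 1366 and 1166 CPM against 711, 771 and 803 CPM (1.07 ± 0.23, adjusted p = 0.00788). In each of these genes resistant replicate 1 was the highest library and the strains did not overlap, and without that library the log2 fold changes were 1.61, 1.01 and 0.73. The fourth, LOC114129422, named pituitary homeobox 2-like, had 5.81, 3.53 and 3.77 CPM against 2.43, 2.20 and 1.26 CPM (1.14 ± 0.31, adjusted p = 0.0225).

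The polyhomeotic gene LOC114121482, of the Polycomb group that keeps Hox genes silent, fell from 385 ± 9.72 to 290 ± 25.7 CPM (-0.41 ± 0.09, adjusted p = 0.00996). The other polyhomeotic gene, LOC114132615, had 119, 91.6 and 77.1 CPM in the resistant and 88.5, 89.4 and 91.4 CPM in the susceptible libraries. Its strains overlapped and the test was not passed (0.09 ± 0.15, adjusted p = 0.644). LOC114131778, named female sterile homeotic but listed with a basic leucine zipper domain and no Swiss-Prot match, rose from 55.7 ± 1.19 to 81.9 ± 20.7 CPM (0.55 ± 0.16, adjusted p = 0.0296). Its resistant libraries had 105, 73.7 and 66.6 CPM. LOC114121784, the gene with a chaperone domain, fell from 344 ± 7.13 to 273 ± 8.89 CPM (-0.33 ± 0.08, adjusted p = 0.0116). The proboscipedia-like gene with a cuticle domain, LOC114123858, had 13.5, 13.2 and 12.1 CPM against 8.97, 10.1 and 10.7 CPM (0.38 ± 0.14, adjusted p = 0.0653, and 0.0356 without resistant replicate 1).

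**Figure D3:**
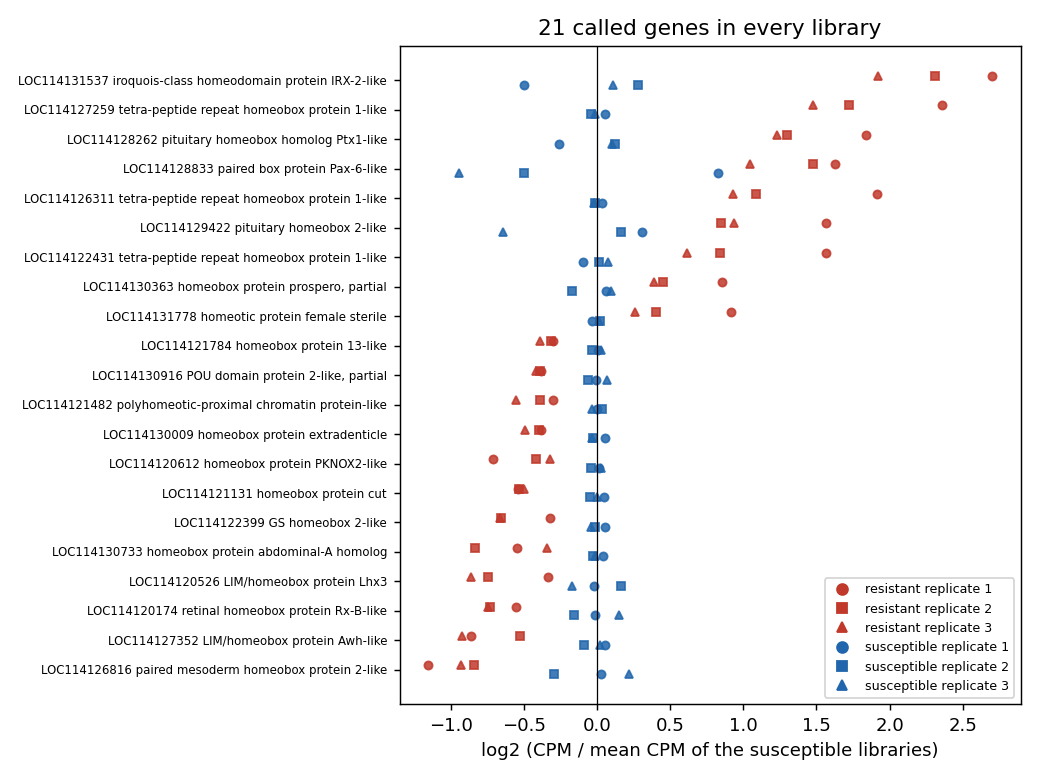
The 21 called genes in every library, as log2 of CPM over the mean CPM of the susceptible libraries, with resistant libraries in red and susceptible in blue. The strains do not overlap in any of the 21, and the range among resistant libraries is 0.47 to 0.98 log2 units in the 9 higher genes and 0.04 to 0.52 in the 12 lower ones.

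The number of calls changed with single libraries, among these genes and over all tested genes. Calls were kept by 7 of the 21 genes whichever library was left out: 5 higher ones, namely IRX-2-like LOC114131537, Ptx1-like LOC114128262 and the tetra-peptide repeat genes LOC114127259, LOC114126311 and LOC114122431, and the lower cut LOC114121131 and extradenticle LOC114130009. The same count was not made over all tested genes. Leaving out resistant replicate 2 ended 6 calls (adjusted p from 0.0520 to 0.129) and added 0. Then 16.9% of the tested homeobox-rule genes were called, against 27.5% of all tested genes. Leaving out resistant replicate 3 ended 2 calls (0.0618 to 0.0982) and added 6. That gave 12 higher (13.6%, background 21.8%) and 13 lower (14.8%, background 15.2%). Without susceptible replicate 1 the calls of 8 genes were lost (0.0508 to 0.145), without replicate 2 those of 9 (0.0551 to 0.135) and without replicate 3 those of 11 (0.0504 to 0.119). The Rx-B-like LOC114120174 (adjusted p from 0.0571 to 0.118) and the GS homeobox 2-like LOC114122399 (0.0982 to 0.145) lost their calls without any library other than resistant replicate 1. The abdominal-A gene LOC114130733 (0.0535 to 0.0777) and LOC114131778 (0.0520 to 0.102) lost theirs without each susceptible library and without resistant replicate 2. Lhx3 LOC114120526 and the Pax-6-like LOC114128833 each lost theirs in 3 of the 6 cases.

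Leaving out resistant replicate 1 moved the median log2 fold change furthest and added the most calls. The 88 genes had a median log2 CPM 0.38 above the mean of the other resistant libraries there, where the median over all tested genes was -0.02. It held the highest resistant value in 64 of the 88 genes, 72.7%, against 42.1% of all tested genes. The largest medians were in the Hox-type (0.55) and other ANTP classes (0.46), and the Six-type, CUT, zinc finger and prospero class (0.16) and the single POU gene (0.02) had the smallest. With scaling to library totals the median over the 88 genes was 0.17 and that of all genes -0.23. Medians of the susceptible libraries against each other lay between -0.04 and 0.05. Without resistant replicate 1, 44 of 89 tested genes were called, 49.4%, where the background rose to 53.5%. Of the 89, 12 were higher, 13.5% against a background of 28.6%, and 32 lower, 36.0% against 24.9%, and the median log2 fold change was -0.35. The 21 calls were all kept and 23 added. Of the genes with a family domain 29 were then lower, among them 4 Hox-type, 7 other ANTP, 8 paired or PAX, 4 LIM and 4 TALE genes.

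**Figure D4:**
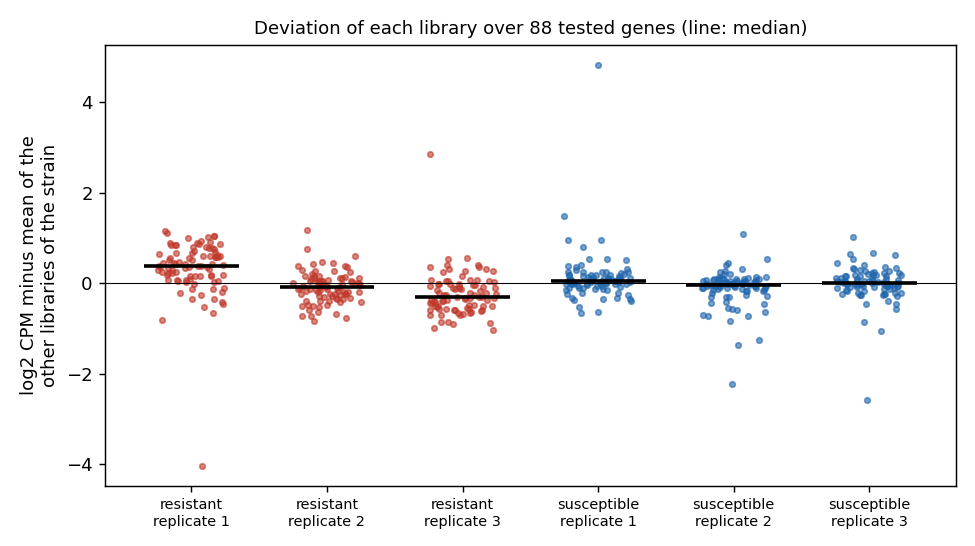
Log2 CPM of each of the 88 tested genes in a library minus the mean of the other libraries of its strain (points), with the median (line). The median is 0.38 in resistant replicate 1, -0.09 and -0.30 in resistant replicates 2 and 3, and between -0.04 and 0.05 in the susceptible libraries.

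**Figure D5:**
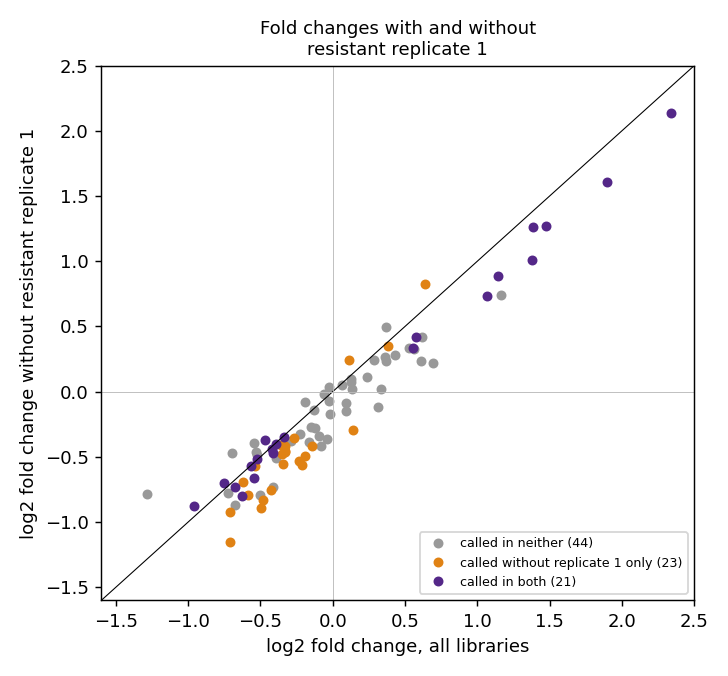
Log2 fold change of the tested genes with all libraries (x) and without resistant replicate 1 (y), with the line of equal values. Most points lie below the line, 21 genes are called in both and 23 only without that library.

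Lists for other roles were set beside these values, where 21.4% of all tested genes rose and 14.4% fell. Of 17 embryo patterning genes without a homeodomain 1 fell, hairy LOC114132619 (-0.55 ± 0.11, adjusted p = 0.00675), and 1 rose, the fork head gene LOC114125297 (0.75 ± 0.21, adjusted p = 0.0237). The text pattern also took giant-lens, lethal(2) giant larvae and twisted gastrulation genes, which have other roles. In resistant replicate 1 the median member of this list was 0.54 higher in log2 CPM than in the other resistant libraries. Its summed level was 595 to 696 CPM in the resistant and 657 to 680 CPM in the susceptible libraries, and every member had counts. Germline genes went the other way in that library, with a median of -0.29. The most abundant of them, the Siwi gene LOC114123562, was the only tested exception, with 226, 183 and 192 CPM in resistant replicates 1 to 3. Of 8 tested germline genes (11 listed, none at 0 counts over all libraries) 1 rose, a vasa-like gene, LOC114124222 (0.66 ± 0.21, adjusted p = 0.0371). The more abundant vasa-like genes LOC114125056 (-0.18 ± 0.10), LOC114125061 (0.03 ± 0.10) and LOC114130394 (0.32 ± 0.17) did not pass the test (adjusted p = 0.196, 0.863 and 0.181). The sum of the listed germline genes was 468, 468 and 503 CPM in resistant replicates 1 to 3 and 433 to 455 CPM in the susceptible libraries. Cuticle protein genes had a median of 0.74 in resistant replicate 1, and their sum was 22648 to 39311 CPM in the resistant and 15966 to 16498 CPM in the susceptible libraries. Of the 53 tested cuticle genes 32 rose and 3 fell. Gut enzyme genes had a median of 0.23 in that library, and 28 of 34 rose between the strains. Neuron markers had a median of -0.07 there, and of 18 tested 5 rose and 4 fell between the strains. Muscle genes had a median of -0.002 there, and of 22 tested 5 rose and 6 fell. The part of these cell types in the results on homeobox genes was not tested.

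Polycomb and Trithorax proteins maintain the on and off states of Hox genes. Of 15 such genes outside the homeobox rule 4 fell and 0 rose, beside 14.4% and 21.4% of all tested genes. The median log2 fold change was -0.21, beside -0.0037 for all, and 14 were below 0. The greatest fall was in trithorax, LOC114126838, with 78.8, 97.3 and 110 CPM in the resistant and 148, 148 and 149 CPM in the susceptible libraries (-0.63 ± 0.12, adjusted p = 0.00477). Sfmbt LOC114128710 (-0.44 ± 0.13), suz12 LOC114129141 (-0.31 ± 0.09) and Pcl LOC114130218 (-0.31 ± 0.09) fell as well. With each susceptible library left out in turn 1 of the 15 was called, as lower. In those fits 6.96% to 7.22% of all tested genes were lower and 14.1% to 14.9% higher. Without resistant replicate 1, where the list's median deviation was -0.17, 7 were called, all as lower. The background rose there as well, to 24.9% of all tested genes lower and 28.6% higher.

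In the order of genes on RefSeq assembly ASM2018417v2, which lists 79 of the 90, several of these genes are neighbours. Proboscipedia-like LOC114125324 stands beside lin-39-like LOC114125326, and labial-like LOC114125327 follows with 1 gene between. Elsewhere LOC114128128 stands beside H55 LOC114128129, with Hox-A4-like LOC114120954 after 2 further genes. Within the first stretch the log2 fold changes were -0.09, 0.69 and -0.54, and within the second -0.48, -0.02 and -0.23. IRX-2-like LOC114131537 (2.34) and caupolican-like LOC114132164 (0.14) are direct neighbours. Lhx2-like LOC114127361 (-0.29 ± 0.20, adjusted p = 0.288) and the fallen Awh-like gene (-0.76) have 3 genes between them, as do the tetra-peptide repeat genes LOC114127259 (1.90) and LOC114122431 (1.07).

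The rule left out 6 genes whose Pfam entry is a homeodomain or POU domain but whose product name does not say so. Of the 5 tested, the uncharacterized LOC114128024 rose (13.0, 9.30 and 8.60 CPM against 3.03, 3.45 and 3.29 CPM; 1.66 ± 0.20, adjusted p = 0.000580) and LOC114132576, matched to ventral veins lacking, fell (58.5, 53.6 and 48.8 CPM against 73.7, 74.8 and 70.8 CPM; -0.45 ± 0.10, adjusted p = 0.00774). Even-skipped LOC114124815 had 6 to 31 counts a library (-0.64 ± 0.62, adjusted p = 0.455), and the Islet gene LOC114130723 (0.53 ± 0.24) and inhibitory POU gene LOC114129074 (0.39 ± 0.18) did not pass the test (adjusted p = 0.113 and 0.118).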

How the data were processed

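Total RNA of pooled whole bodies was prepared for sequencing with the NEBNext Ultra kit for RNA, per the labels' protocols. Use of fastp 0.22.0 and HISAT2 is recorded per the submitters' processing notes. For counter, annotation and genome build nothing is stated. Per the file headers, the authors deposited whole-number read counts per gene and library, not normalized, and FPKM values per library. Counts were tested in R 4.3.3 with edgeR 4.0.16: filterByExpr (minimum count 10, minimum total 15), TMM, and a robust quasi-likelihood F test on strain over all 11149 genes that passed, with Benjamini-Hochberg adjustment over them. FPKM served only to compare levels between genes. Each SE is the absolute log2 fold change over √F. Log2 CPM used a prior count of 2. Totals ranged from 31290134 to 46681719 counts, and the limit of 3 counts for a count of 0 covers counting error only.

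Members and lists were chosen with earlier results of these data known. Classes follow product names, then Swiss-Prot matches, within genes with a homeobox-family Pfam domain; 5 genes were classed by hand after the annotation was seen. Genes were named by rule: every Hox-type gene, every called gene (at most 24), the 5 of highest FPKM and the 3 with the widest range of log2 CPM among resistant libraries (mean CPM at least 1). Caupolican-like, engrailed-like, invected-like, Lhx2-like, prospero-like LOC114123560, 2 further Pax-6-like and the other polyhomeotic genes were named after their values were seen. So were spalt-major, homeobox protein 12-like LOC114132312, the untested genes and genes outside the homeobox rule. Alternatives were DESeq2 1.42.0, limma 3.58.1 voom, other scalings and filters, a replicate block, each library left out and narrower member sets. Libraries of a strain differed beyond counting noise (chi-square over degrees of freedom from 6.94 to 123), so all 6 were kept. Figures were drawn with Python 3.11.15 and matplotlib 3.10.9. Sequences were not used here.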

Additional observations from a re-analysis of the deposited data

How the results depend on the processing

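With library totals alone 25 genes were called lower, and with family-domain members only, an alternative chosen after seeing the data, 4 were called higher. Leaving out each library in turn gave 5 to 12 higher and 5 to 32 lower of the homeobox genes, a median log2 fold change of -0.35 to -0.11, and 1593 to 3249 higher and 788 to 2826 lower of all genes. The log2 fold change of caupolican-like LOC114132164 ranged from -0.29 (without resistant replicate 1, a reversal) to 0.36; the cause was not tested. All 21 calls were kept with the DESeq2 Wald test, limma-voom, DESeq2 size factors and the filter on CPM above 1. The DESeq2 Wald test added 8 calls, giving 11 higher (background 23.0%) and 18 lower (background 18.6%). Limma-voom added 3, giving 9 higher (background 21.3%) and 15 lower (background 15.6%). Without a filter GS homeobox 2-like LOC114122399 was lost (adjusted p = 0.0540). The replicate numbers do not pair the samples (correlations of deviations from -0.03 to -0.01 for same-numbered libraries). The replicate block gave 9 higher (background 18.9%) and 10 lower (background 11.8%), without LOC114122399 and LOC114120174. With Polycomb and Trithorax names left out 8 rose and 11 fell. With 3 libraries a strain and many genes under 10 CPM, changes of the size seen in the Hox-type genes could go undetected.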
